A study of Homo sapiens with 18 samples.

Results

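Endothelial cells kept with CD63+ extracellular vesicles of Jurkat cells were compared with endothelial cells kept with MHC1+ vesicles of the same cells. The comparison rests on 6 of the 18 arrays of the series, 3 for each kind of vesicle, chosen by the bracketed part of the sample names. The recipients were HUVEC, endothelial cells of the human umbilical vein, described in the labels as normal. The vesicles were shed by Jurkat, an established leukaemia line of T cell origin, or by JinB8, a derivative that the series describes as lacking CD47. The bracketed sample names give JinB8 for all 6 arrays of that line, while 5 of them carry other JinB numbers elsewhere in their labels. They had been captured through CD63 or through MHC class 1, and they stayed with the endothelial cells for 3 days. The remaining arrays are 3 of cells with CD63+ and 3 with MHC1+ vesicles of JinB8, 3 of cells with control beads for 3 days, called IgG beads here, and 3 of untreated cells with no time given. Conditioned medium of several flasks was pooled before the vesicles were isolated. The labels do not say whether a group's arrays were separate endothelial cultures, and the p-values therefore reflect the spread among these arrays alone, possibly a technical one. The amount of vesicles given per culture is not given in the sources used here, so the identity of the captured vesicles and their amount cannot be told apart.

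Extracellular vesicles are membrane particles that cells shed. Some form inside endosomes and leave when the endosome fuses with the plasma membrane, and others bud from the surface. CD63 is a tetraspanin concentrated in late endosomes and is widely used as a marker of the first kind, while MHC class 1 is a peptide-presenting complex of the cell surface that is found on vesicles of several origins. Endothelial cells take up T cell vesicles, which carry proteins and RNA. The comparison of both captures asks whether vesicles of 1 cell line that differ in these surface proteins leave endothelial cells with different transcripts.

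All levels below are log2 RMA signals, a difference is a CD63+ minus MHC1+ mean on that scale, and a gene was called where limma's adjusted p over 18417 genes was under 0.05. Untreated replicate 3 and IgG bead replicate 3 correlated with the other arrays at a median r of 0.647 and 0.635 and were left out, which leaves 16 arrays in the fit. Jurkat MHC1+ replicate 1 also stood apart, with a median r of 0.948 against 0.987 to 0.992 for the other 5 Jurkat arrays, so results are given with it (16 arrays) and without it (15 arrays). Its signals were compressed: their SD over probe sets was 2.005 against 2.140 to 2.214 in the other 5. The median SD of a gene was 0.127 over the CD63+ arrays and 0.271 over the MHC1+ arrays, and 0.117 over MHC1+ replicates 2 and 3 alone. The 10 endothelial markers averaged 9.53 to 9.59 per CD63+ array and 9.34 to 9.59 per MHC1+ array. The 27 measured T cell markers had means of 4.35 to 4.46 and 4.39 to 4.79, and markers of fibroblasts, monocytes and epithelium likewise were highest in MHC1+ replicate 1. The part of these marker levels in the results below was not tested.

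STC1 was the only gene called, and it was higher with CD63+ vesicles. STC1 encodes stanniocalcin 1, a secreted glycoprotein hormone that endothelial cells make. Its level was 8.19, 8.28 and 8.21 in the 3 CD63+ arrays and 7.38, 7.36 and 7.07 in the 3 MHC1+ arrays. All 3 CD63+ arrays lay above all 3 MHC1+ arrays, and the gap between the groups exceeded the spread within either. The means were 8.23 ± 0.05 and 7.27 ± 0.17 (SD, n = 3 each), a 1.94-fold difference (log2 0.96 ± 0.13 SE, 95% interval 0.69 to 1.23, limma adjusted p = 0.033). In 15 arrays the difference was 1.01 ± 0.13 (limma adjusted p = 0.025). An exact permutation test of 3 against 3, two-sided, gave p = 0.1, the smallest value this design allows. STC1 was 1 of 18417 genes, so that 0.00543% of the genes tested were called, with 16 and again with 15 arrays. The call was kept when 5 of the 16 arrays were left out in turn (Jurkat MHC1+ replicate 1, either untreated array, JinB8 MHC1+ replicates 2 or 3). It was lost when any of the other 11 was left out, with limma adjusted p up to 0.37. Over all 16 the difference stayed between 0.86 and 1.01. Leaving out an array of another group changes the estimate of the spread and not this difference.

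STC1 stood in the same order in the other groups. Cells with IgG beads had 6.53 and 6.66, and untreated cells 6.66 and 6.93, in the arrays kept, and all 12 vesicle arrays lay above these 4. Against the beads, STC1 was higher by 1.63 ± 0.14 with CD63+ vesicles (limma adjusted p = 0.00015) and by 0.67 ± 0.14 with MHC1+ vesicles, which did not pass the threshold (limma adjusted p = 0.44). The JinB8 arrays measured 8.78, 8.84 and 8.72 with CD63+ and 7.68, 7.84 and 7.49 with MHC1+ vesicles. They share no array with the Jurkat comparison, and the difference there was 1.10 ± 0.13 (limma adjusted p = 0.0018). Both captures of JinB8 lay above the same capture of Jurkat. The capture difference itself was -0.15 ± 0.18 in Jurkat relative to JinB8 (limma interaction adjusted p = 0.55). STC2, which encodes the related stanniocalcin 2, had 6.96 ± 0.08 with CD63+ and 7.20 ± 0.15 with MHC1+ vesicles (SD, n = 3 each), and its difference of -0.24 was not called.

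**Figure D1:**
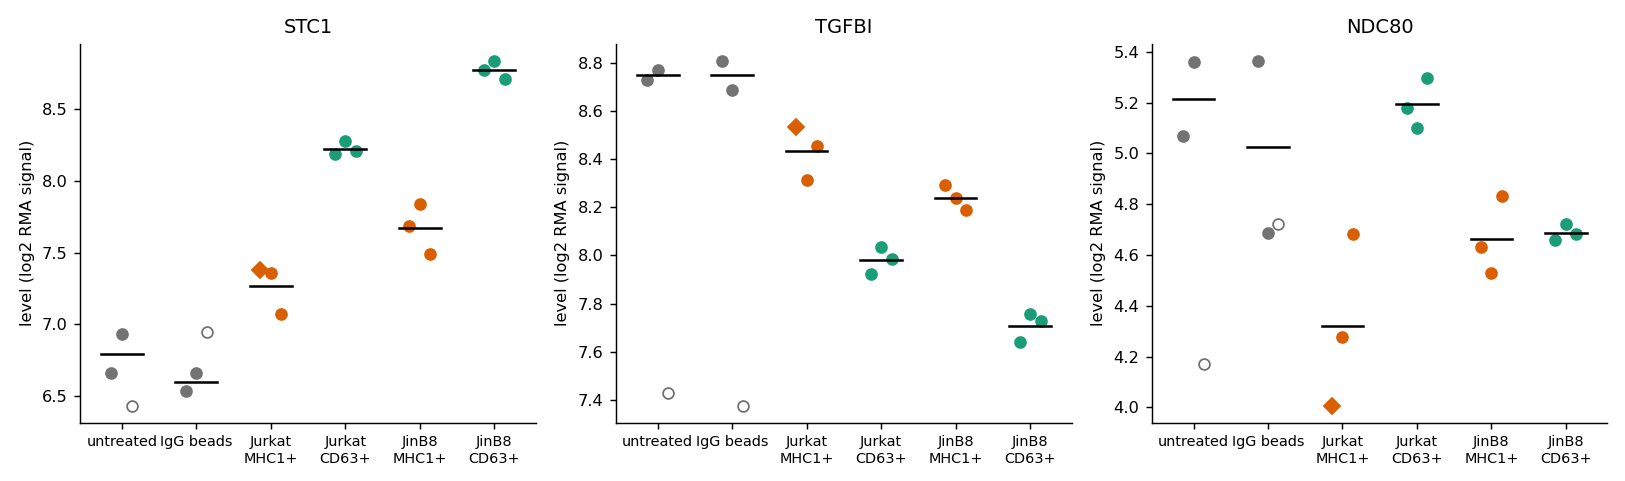
Levels (log2 RMA signal) of STC1, TGFBI and NDC80 in each array of the 6 groups, with the mean of each group as a line. Open circles are the 2 control arrays left out of the means, and the diamond is Jurkat MHC1+ replicate 1. STC1 is higher with CD63+ than with MHC1+ vesicles in both cell lines, while the NDC80 groups are apart in Jurkat and overlap in JinB8.

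No other gene passed the threshold. The next smallest adjusted p was 0.41 with 16 arrays and 1.0 with 15, both from limma. At an unadjusted p under 0.05, 7.10% of genes were higher and 3.88% lower with CD63+ vesicles in 16 arrays, and 1.35% and 0.907% in 15. The CD63+ arrays were all above the MHC1+ arrays in 5.92% of genes and all below in 5.06%. All 32 genes that differed by more than 1 were higher with CD63+ vesicles, and STC1 alone differed by that much in 15 arrays. The genes described from here on are therefore given by their values, ordered by role, and none of their differences passed the correction.

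Members of the TGF-beta and matrix lists differed in both directions. The genes named in this paragraph were all lower with CD63+ vesicles, and TGFB1I1 among them is in neither list. Of the 32 measured TGF-beta and BMP genes 12 had a difference above 0 (14 in 15 arrays), and the values ran from -0.50 to 0.51. TGFBI encodes a secreted matrix protein induced by TGF-beta. It measured 7.92, 8.04 and 7.99 with CD63+ and 8.53, 8.31 and 8.45 with MHC1+ vesicles. The groups did not overlap, and the difference was -0.45 ± 0.10 with 16 and -0.40 ± 0.11 with 15 arrays (limma adjusted p = 0.41 and 1.0). In JinB8 it was -0.53 ± 0.10. Against the beads, TGFBI was -0.77 with CD63+ and -0.31 with MHC1+ vesicles. TGFB1I1, an adaptor protein of focal adhesions, differed by -0.52, CCN2, a matricellular protein of the TGF-beta and YAP response, by -0.37, and BMP4, a ligand of the family, by -0.50. The TGF-beta ligand TGFB2 had 9.63, 9.53 and 9.64 with CD63+ and 9.47, 10.03 and 10.18 with MHC1+ vesicles, so the groups overlapped only through replicate 1. Its difference was -0.30 with 16 and -0.51 with 15 arrays, and -0.15 without MHC1+ replicate 3. Over the 32 measured genes of the TGF-beta and BMP list the median was -0.06, with 1 gene higher and 3 lower at an unadjusted p under 0.05, which is 3.12% and 9.38% against 7.10% and 3.88% of all genes. In 15 arrays the counts were 1 and 5, which is 3.12% and 15.6% against 1.35% and 0.907% of all genes.

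Of 29 measured collagens and collagen-modifying enzymes, 7 had a difference above 0 and the others below, and the values ran from -0.56 to 0.54. Of the list, 7 were lower and none was higher at an unadjusted p under 0.05 (24.1% against 3.88% of all genes). In 15 arrays 4 were lower (13.8% against 0.907% of all genes). The list median was -0.19 with 16 and -0.15 with 15 arrays, beside medians over all genes of -0.02 and 0.02. COL5A1, a fibrillar collagen chain, had 7.46, 7.54 and 7.28 with CD63+ and 8.46, 7.80 and 7.68 with MHC1+ vesicles. Its groups did not overlap, and MHC1+ replicate 1 was the highest of the 6. Without that array its difference moved from -0.56 to -0.32. LOXL2, a collagen cross-linking oxidase, differed by -0.36 and COL18A1, the chain that yields endostatin, by -0.52, which was -0.30 without MHC1+ replicate 1. The list of other matrix proteins and proteases had 18 of 32 members above 0 and a median of 0.01. At an unadjusted p under 0.05, 3 were higher and 3 lower (9.38% each way, against 7.10% and 3.88% of all genes). In 15 arrays 9 members were above 0, the median was -0.07, and 2 were higher and 3 lower. These are 6.25% and 9.38% against 1.35% and 0.907% of all genes. In this list, the proteoglycan BGN differed by -0.42 and the protease ADAMTS4, which cuts aggrecan, by 0.54. ADAMTS4 measured 6.64, 6.59 and 6.60 with CD63+ and 5.98, 6.03 and 6.21 with MHC1+ vesicles.

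**Figure D2:**
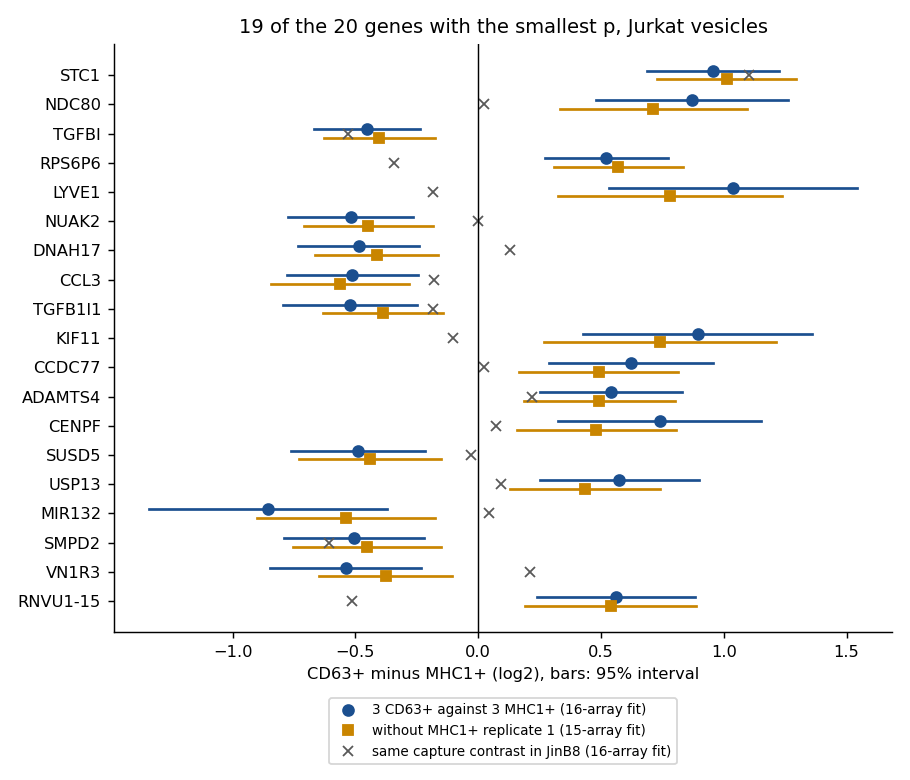
The plot shows 19 of the 20 genes with the smallest unadjusted p in the comparison of Jurkat vesicles, with the CD63+ minus MHC1+ difference (log2) and its 95% interval in 16 arrays (circles) and 15 arrays (squares). Crosses mark the same difference for JinB8 vesicles. STC1 alone was called, and for STC1, TGFBI and SMPD2 the crosses lie close to the Jurkat values.

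Genes of mitosis had higher levels with CD63+ than with MHC1+ vesicles of Jurkat. Of 38 measured members of the G2 and mitosis list, 20 were higher and none lower at an unadjusted p under 0.05, which is 52.6% against 7.10% of all genes. Without MHC1+ replicate 1, 10 of the 38 were higher (26.3% against 1.35%). In 12 of the 38 the groups did not overlap, all with CD63+ above (31.6% against 5.92% of all genes). The median difference was 0.42 with 16 and 0.26 with 15 arrays, and 35 members were above 0. The 3 others were CDC20, an activator of the anaphase-promoting complex, at -0.18, UBE2C, its ubiquitin-conjugating enzyme, at -0.05, and KIF2C, a microtubule depolymerase, at -0.01, named because of these values. The sign of CDC20 and KIF2C turned in 15 arrays, where they gave 0.13 and 0.11. No member passed the threshold after correction.

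The 4 members with the smallest unadjusted p act at the kinetochore and spindle. NDC80, a microtubule-binding subunit of the kinetochore, measured 5.18, 5.10 and 5.30 with CD63+ and 4.01, 4.28 and 4.68 with MHC1+ vesicles, a difference of 0.87 ± 0.18 (limma adjusted p = 0.41). KIF11, the motor that separates spindle poles, had 5.79, 5.65 and 5.78 against 4.54, 4.58 and 5.41. CENPF, a kinetochore protein, had 6.69, 6.52 and 6.54 against 5.33, 5.99 and 6.21. DLGAP5, which stabilises kinetochore fibres, had 6.46, 6.49 and 6.60 against 5.12, 5.78 and 6.09. In these 4 genes every CD63+ array lay above every MHC1+ array, MHC1+ replicate 1 was the lowest and replicate 3 the highest of its group. Without replicate 1 the 4 differences were 0.71, 0.74, 0.48 and 0.58. The kinase CDK1, which drives entry into mitosis, differed by 0.66 and its cyclin CCNB1 by 0.81. Topoisomerase TOP2A differed by 0.63 and the proliferation marker MKI67 by 0.29, and MKI67 differed by 0.14 without MHC1+ replicate 1.

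By array, the mean level of the 38 genes was 5.98, 5.78 and 6.04 with CD63+ and 5.26, 5.47 and 5.80 with MHC1+ vesicles, so CD63+ replicate 2 and MHC1+ replicate 3 met. With IgG beads it was 6.45 and 5.99. The median difference from the beads was -0.30 for CD63+ and -0.77 for MHC1+ vesicles, both set against the same 2 bead arrays. In JinB8 the median capture difference of the list was -0.09. The difference of the contrasts was called for none of its members, and NDC80 gave 0.85 ± 0.26 for it (limma interaction adjusted p = 0.14).

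**Figure D3:**
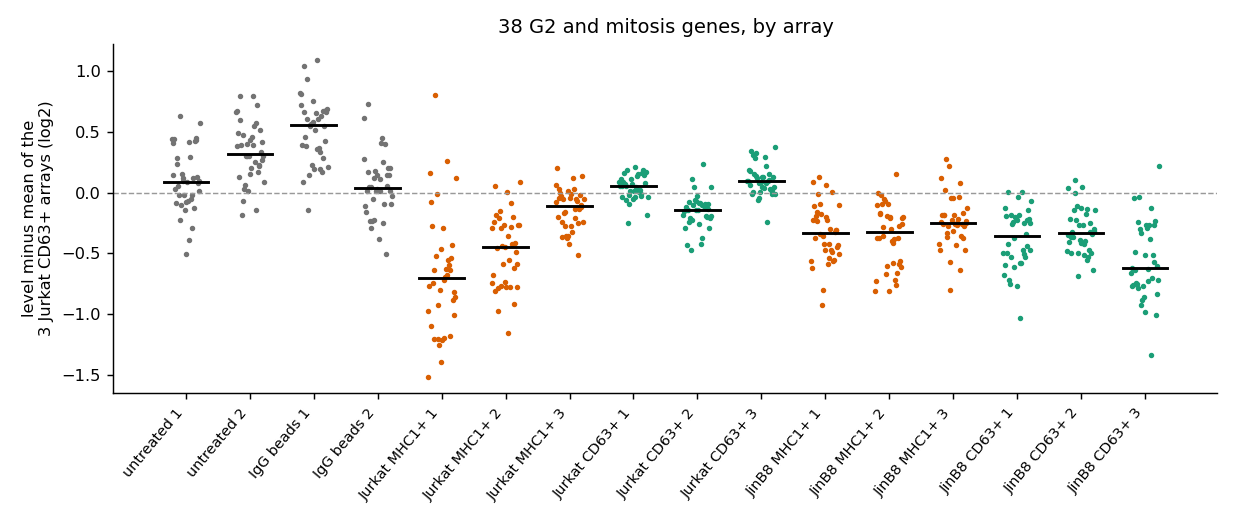
Levels of the 38 G2 and mitosis genes in each array kept, as differences (log2) from the mean of the 3 Jurkat CD63+ arrays, with 1 point per gene and the median as a line. The medians of Jurkat MHC1+ replicates 1, 2 and 3 are -0.71, -0.45 and -0.11, and those of the bead arrays are 0.55 and 0.04.

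The promoters of the 4 leading mitosis genes are shown because cell cycle genes of this kind are known to share elements close to their start sites: CCAAT boxes, bound by NF-Y, and the cell cycle homology region, bound by the MuvB complex. Each run holds the 120 bases before the RefSeq start site (GRCh38.p14), 5′ to 3′ on the gene's strand, with matches in capitals. The first element was searched as CCAAT and, for the other strand, as ATTGG. The second was searched as TTTGAA and, for the other strand, as TTCAAA, and also as TTCGAA, which reads alike on both strands. The letters of the elements do not overlap each other in these runs.
NDC80, chr18:2571437-2571556, plus strand: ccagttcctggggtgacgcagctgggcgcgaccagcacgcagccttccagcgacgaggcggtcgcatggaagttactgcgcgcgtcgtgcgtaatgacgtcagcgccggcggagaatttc
KIF11, chr10:92593010-92593129, plus strand: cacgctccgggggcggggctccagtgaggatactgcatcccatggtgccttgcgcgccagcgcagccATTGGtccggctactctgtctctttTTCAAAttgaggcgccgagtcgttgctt
CENPF, chr1:214603075-214603194, plus strand: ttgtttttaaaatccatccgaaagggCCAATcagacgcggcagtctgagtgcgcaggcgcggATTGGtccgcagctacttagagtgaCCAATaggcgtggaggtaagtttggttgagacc
DLGAP5, chr14:55191586-55191705, minus strand: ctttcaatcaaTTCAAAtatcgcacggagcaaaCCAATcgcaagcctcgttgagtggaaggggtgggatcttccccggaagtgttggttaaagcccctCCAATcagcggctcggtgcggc

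CENPF held 3 CCAAT matches, DLGAP5 held 2 and KIF11 held 1, while KIF11 and DLGAP5 each held TTCAAA. The NDC80 window held neither set of letters. Over both strands, CCAAT occurred in 60.6% of the 33 promoters found for the mitosis list, at 20 promoters, and in 21.2% of 27305 promoters of that length. The 6-letter cell cycle elements occurred in 48.5% and 6.13%. These are matches of letters, which the arrays do not test.

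Genes of DNA replication were higher with CD63+ vesicles in 10 of 39 measured members and lower in none at an unadjusted p under 0.05 (25.6% against 7.10% of all genes). Without MHC1+ replicate 1 the count was 2 (5.13% against 1.35%). POLA1, the catalytic subunit of the polymerase that starts DNA strands, had 5.70, 5.60 and 5.99 with CD63+ and 4.94, 5.30 and 5.42 with MHC1+ vesicles. TYMS, which makes thymidylate, differed by 0.69, and MCM7, a subunit of the replicative helicase, by 0.53. POLA1 and TYMS are the 2 that stayed in 15 arrays, with differences of 0.40 and 0.42, and MCM7 then differed by 0.29. The list median was 0.20 with 16 and 0.14 with 15 arrays.

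Among endothelial identity genes, 2 of 32 measured were higher with CD63+ vesicles at an unadjusted p under 0.05, LYVE1 and MEF2C, and 1 was lower, ENG. These shares of 6.25% and 3.12% are no higher than the 7.10% and 3.88% of all genes. In 15 arrays 3 were higher and 1 was lower, which is 9.38% and 3.12% against 1.35% and 0.907% of all genes. LYVE1, a hyaluronan receptor of lymphatic and some other endothelium, had 7.97, 7.69 and 8.0 with CD63+ and 6.34, 6.73 and 7.48 with MHC1+ vesicles. The groups did not overlap, and the difference was 1.04 ± 0.24 with 16 and 0.78 ± 0.21 with 15 arrays (limma adjusted p = 0.41 and 1.0). With IgG beads its mean was 7.97, so the CD63+ level was the closer one to the beads. The transcription factor MEF2C differed by 0.66. ENG, a TGF-beta co-receptor of endothelium, differed by -0.33. The 32 measured identity genes had a median of 0.12 with 16 and 0.03 with 15 arrays. KITLG, which encodes stem cell factor and is named for its value, differed by 1.14 and by 0.71 without MHC1+ replicate 1.

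Several other genes of small p have unrelated roles. NUAK2, a kinase of the AMPK family, had 4.66, 4.75 and 4.75 with CD63+ and 5.38, 5.25 and 5.09 with MHC1+ vesicles. The chemokine CCL3 differed by -0.51 with 16 and -0.56 with 15 arrays at low levels, with means of 4.55 and 5.07. LDB2, a LIM domain-binding cofactor, differed by 0.65 and 0.74, and the ribosomal pseudogene RPS6P6 by 0.52 and 0.57. Signal of a pseudogene cannot be told apart from that of its parent gene with certainty. CCL3, LDB2 and RPS6P6 thus kept the size of their difference without MHC1+ replicate 1, while LDB2 gave 0.43 without MHC1+ replicate 2.

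Genes of sterol synthesis and of the sterol response had higher values with CD63+ vesicles, and most of that difference went with MHC1+ replicate 1. Of 16 measured genes of mevalonate and cholesterol synthesis, 6 were higher at an unadjusted p under 0.05 (37.5% against 7.10% of all genes). None was in 15 arrays, against 1.35% of all genes, and the median moved from 0.42 to 0.18. HMGCS1, which commits acetyl-CoA to the mevalonate pathway, had 7.72, 8.08 and 7.82 with CD63+ and 5.68, 7.53 and 7.63 with MHC1+ vesicles. Without the array at 5.68, its difference fell from 0.93 to 0.29, with a 95% interval of -0.24 to 0.83. SQLE, squalene epoxidase, differed by 0.74 and then 0.37, and INSIG1, the sterol-regulated retention protein, by 0.49 and then 0.30. FASN, fatty acid synthase, differed by -0.05, and SCD, the stearoyl-CoA desaturase, by 0.40 and then 0.11. ABCA1, the cholesterol exporter, differed by 0.52 and then 0.36. Of 18 measured sterol sensing, uptake and efflux genes, 7 were higher at an unadjusted p under 0.05 in 16 arrays (38.9% against 7.10% of all genes). None was in 15 arrays, against 1.35% of all genes.

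Respiratory, ribosomal and antioxidant genes had the same dependence on that array. Of 33 respiratory chain and ATP synthase genes 9 were higher at an unadjusted p under 0.05 (27.3% against 7.10% of all genes). Of 61 ribosomal protein genes 14 were higher (23.0%) and 1 lower (1.64% against 3.88% of all genes). No gene of either list was higher or lower at that threshold in 15 arrays, against 1.35% and 0.907% of all genes. TXN, thioredoxin, had 10.11, 9.91 and 10.14 with CD63+ and 8.44, 9.51 and 9.90 with MHC1+ vesicles. NDUFB5, a complex I subunit, differed by 0.91 and by 0.50 without replicate 1, and RPS3A, a protein of the small ribosomal subunit, by 0.82 and 0.39. The peroxidase PRDX1 differed by 0.62 and 0.40, the mitochondrial chaperonin HSPD1 by 0.52 and 0.31, and the endoplasmic reticulum co-chaperone DNAJB11 by 0.58 and 0.34. NDRG1, a hypoxia-inducible gene, differed by 0.44 and 0.32. Over the 41 gene lists examined, MHC1+ replicate 1 had the lowest list mean of the 6 arrays in 26 and the highest in 9. In 38 lists the 3 MHC1+ arrays ranged more widely than the CD63+ arrays, and in 34 the median lay closer to 0 without that array. Metallothioneins are small zinc-binding proteins, and their list was written to include MTF1 and SLC30A1, which are not metallothioneins. All 12 measured genes of that list had differences below 0. Their median was -0.16 and then -0.11, beside -0.02 and 0.02 over all genes.

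**Figure D4:**
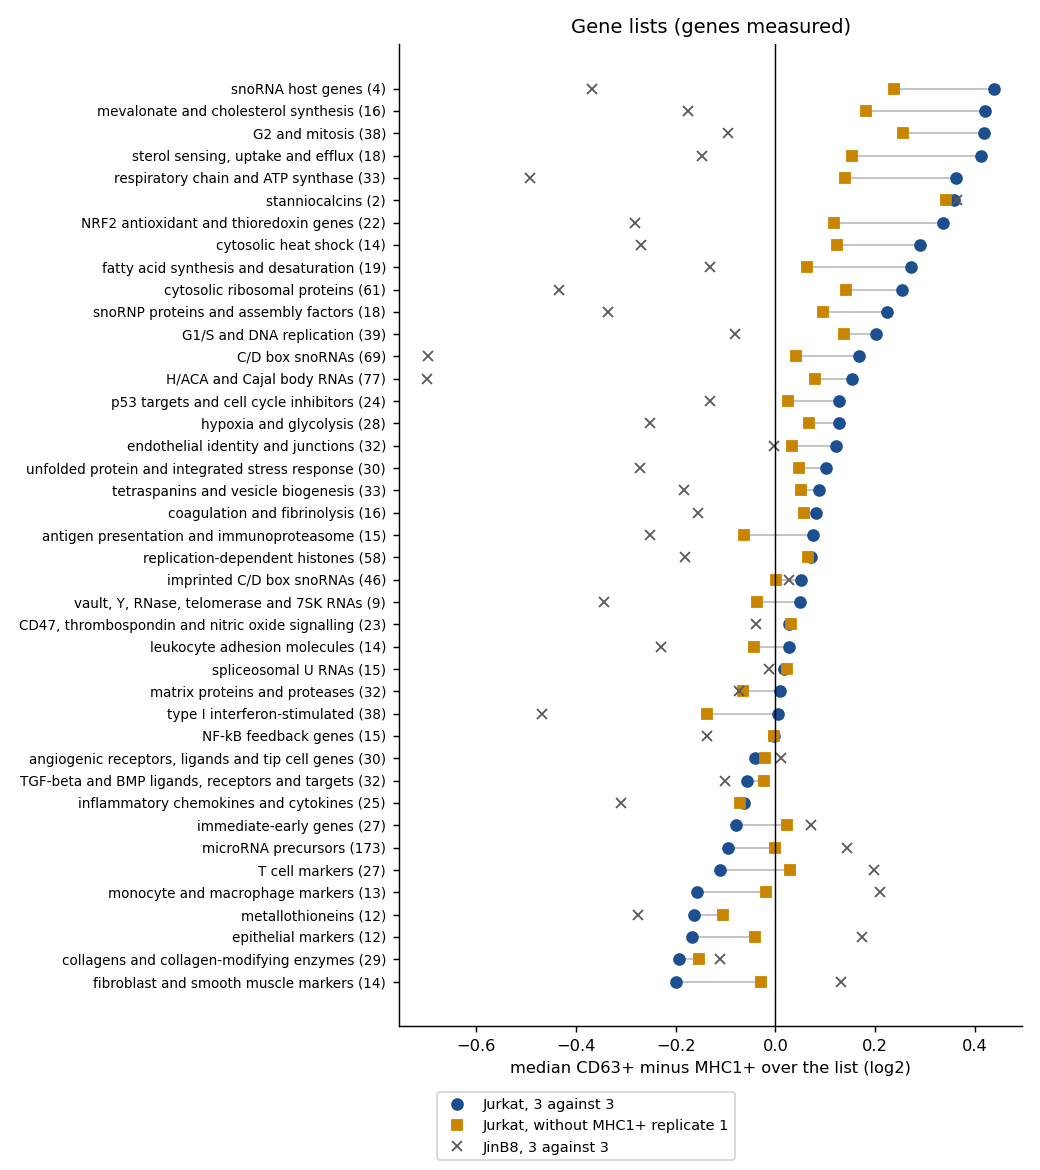
Median CD63+ minus MHC1+ difference (log2) of each of the 41 gene lists, with the number of genes measured in brackets, for Jurkat vesicles with 3 against 3 arrays (circles), without MHC1+ replicate 1 (squares) and for JinB8 vesicles (crosses). The mitosis list moves from 0.42 to 0.26 without that array, and the snoRNA lists lie at -0.70 in JinB8.

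Of 25 measured inflammatory chemokines and cytokines, 1 was higher and 2 were lower at an unadjusted p under 0.05. These are 4.0% and 8.0% against 7.10% and 3.88% of all genes. In 15 arrays there was none of either, against 1.35% and 0.907% of all genes. The differences of this list ran from -0.39 to 0.75. The 38 measured interferon-stimulated genes had a median of 0.00 with 16 and -0.14 with 15 arrays, and 4 were lower at an unadjusted p under 0.05 (10.5% against 3.88% of all genes). In 15 arrays 3 were lower (7.89% against 0.907% of all genes). None was higher at that threshold in either fit. OAS3, an antiviral oligoadenylate synthetase, had 8.56, 8.74 and 8.61 with CD63+ and 9.17, 9.10 and 8.92 with MHC1+ vesicles, and its groups did not overlap. The adhesion receptors VCAM1, ICAM1 and SELE differed by 0.09 (95% interval -0.19 to 0.37), -0.07 (-0.39 to 0.25) and 0.35 (-0.27 to 0.98). Without MHC1+ replicate 1 SELE differed by -0.08. None of 14 adhesion genes had an unadjusted p under 0.05, while 7.10% of all genes were higher and 3.88% lower at that threshold.

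The proteins used for capture and the CD47 axis were also read in the recipient cells. CD63 measured 11.02, 11.12 and 11.20 with CD63+ and 10.58, 10.87 and 11.11 with MHC1+ vesicles, a difference of 0.26 (95% interval -0.04 to 0.56), and of 0.12 without MHC1+ replicate 1. B2M, the light chain of MHC class 1, differed by 0.37 (-0.07 to 0.81), and by 0.12 without that array. CD47 had 8.80, 8.65 and 8.88 against 6.97, 8.59 and 8.84, so that 1 array gave nearly all of its difference of 0.64, which was 0.06 without it (95% interval -0.34 to 0.47). THBS1, thrombospondin 1 and a ligand of CD47, differed by -0.08 (-0.30 to 0.14). NOS3, the endothelial nitric oxide synthase, measured 7.23 in both groups (95% interval of the difference -0.27 to 0.27), and KDR, the main VEGF receptor, differed by 0.21 (-0.11 to 0.52), and by 0.03 without MHC1+ replicate 1.

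Of 173 microRNA precursors measured, 5 were higher and 6 lower at an unadjusted p under 0.05, and 1 and 2 in 15 arrays. The shares of 2.89% and 3.47% lie below the 7.10% and 3.88% of all genes. In 15 arrays the shares were 0.578% and 1.16%, against 1.35% and 0.907% of all genes. MIR132 had the smallest p of them. It measured 5.61, 5.89 and 5.45 with CD63+ and 7.14, 6.37 and 6.01 with MHC1+ vesicles, so the groups did not overlap and MHC1+ replicate 1 was the highest. The difference was -0.85 ± 0.23 with 16 and -0.54 ± 0.17 with 15 arrays (limma adjusted p = 0.41 and 1.0). miR-132 is a microRNA known to act in angiogenic endothelium, and its mature forms are shown to identify it (RefSeq, GRCh38.p14, minus strand), with the seed, bases 2 to 8, in capitals.
hsa-miR-132-5p, chr17:2049965-2049986: aCCGUGGCuuucgauuguuacu
hsa-miR-132-3p, chr17:2049929-2049950: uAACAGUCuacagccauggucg
The seeds differ, and the array reads the precursor, not the mature forms. MIR21, abundant in endothelium, had a difference of 0.59 (0.38 without MHC1+ replicate 1), MIR106B of -0.60 and MIR217 of 0.49.

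Small nucleolar RNAs, which guide chemical modification of ribosomal and spliceosomal RNA, had list medians of opposite sign in Jurkat and JinB8, as had other lists. The difference of the contrasts had an unadjusted p under 0.05 in 5290 of 18417 genes by limma. Its median was 0.95 for H/ACA and Cajal body RNAs, 0.88 for C/D box RNAs, 0.83 for respiratory chain genes and 0.68 for ribosomal protein genes. The signal SD over probe sets was 2.117, 2.189 and 2.048 in the JinB8 CD63+ arrays and 2.213 to 2.251 in the JinB8 MHC1+ arrays. The part of this compression in the JinB8 contrast and in the difference of the contrasts was not tested. H/ACA RNAs are guides of pseudouridylation, and they were listed together with the Cajal body RNAs, which are not all of that kind. These 77 measured RNAs had a median difference of 0.15 in Jurkat (0.08 in 15 arrays) and -0.70 in JinB8. The 69 measured C/D box snoRNAs outside imprinted clusters, guides of 2′-O-methylation, had 0.17 (0.04) and -0.70. Of these 146 RNAs none was called in Jurkat and 26 were called in JinB8, all lower with CD63+ vesicles. At an unadjusted p under 0.05, 7 of the H/ACA group were higher and 3 lower in Jurkat, and 9 and 1 of the C/D group. These are 9.09% and 3.90%, and 13% and 1.45%, against 7.10% and 3.88% of all genes. In 15 arrays the counts were 4 and 1, and 1 and 2. The shares were then 5.19% and 1.30%, and 1.45% and 2.90%, against 1.35% and 0.907% of all genes. In JinB8 0.185% of all genes were called, 2 higher and 32 lower, and that count ranged from 7 to 714 when single arrays were left out, with 714 without JinB8 CD63+ replicate 2 and 355 without Jurkat MHC1+ replicate 1. No gene of the 18417 had a Jurkat difference below -1, so none of the 146 had one. In JinB8 43 of the 146 had such a difference, and its share over all genes is not given here.

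The difference of the contrasts was called in 16 arrays for SNORA38B, SNORD42A and SNORA37, which are all the genes called (0.0163%). SNORA38B, an H/ACA RNA, measured 6.48, 6.36 and 6.01 with CD63+ and 6.69, 6.59 and 6.29 with MHC1+ vesicles of Jurkat. In JinB8 it measured 5.99, 6.31 and 6.50 with CD63+ and 8.62, 8.71 and 8.53 with MHC1+ vesicles. The 3 JinB8 MHC1+ arrays were the high ones, and the other 3 groups overlapped. Its contrasts differed by 2.11 ± 0.23 (limma interaction adjusted p = 0.0026). SNORD42A, a C/D box RNA, had 6.97, 6.92 and 6.97 against 6.70, 6.94 and 6.88 in Jurkat, with a difference of 0.11 (95% interval -0.15 to 0.37). In 15 arrays the difference of the contrasts was called for 15 genes (0.0814%), all of them snoRNAs or Cajal body RNAs and all with the Jurkat contrast the higher one, SNORD36B among them. This count moved by array: it was 4682 without Jurkat MHC1+ replicate 3 and 1786 without JinB8 CD63+ replicate 2, and 1 to 15 without any other array.

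Within Jurkat, the values of several small RNAs were again lowest in MHC1+ replicate 1. SCARNA7, a Cajal body RNA, had 8.50, 8.84 and 8.69 with CD63+ and 6.44, 7.96 and 8.32 with MHC1+ vesicles, a difference of 1.10 that was 0.54 without replicate 1. SNORD12C, a C/D box RNA, had 4.48, 4.83 and 4.61 against 3.58, 3.95 and 4.10, and differed by 0.76 and 0.61. SNORA62 differed by 0.08 (95% interval -0.69 to 0.86) and the vault RNA VTRNA1-1 by 0.54 (-0.09 to 1.17), each with CD63+ replicate 2 the highest of the 6 arrays. Without that array they differed by -0.33 and 0.07. Sample labels and series design name different RNA kits, and the retention of short RNA is not given in either.

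**Figure D5:**
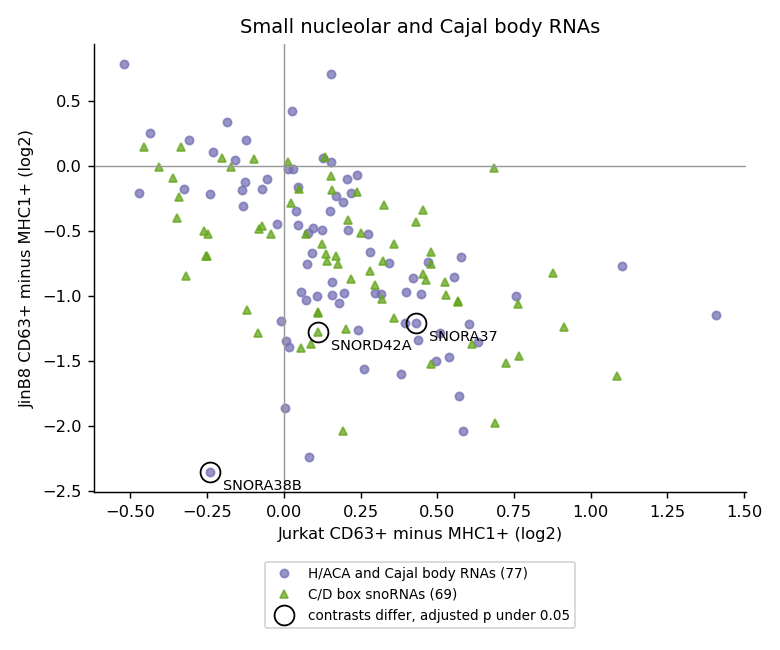
CD63+ minus MHC1+ difference (log2) in Jurkat (x axis) and in JinB8 (y axis) for 77 H/ACA and Cajal body RNAs and 69 C/D box snoRNAs, 1 point per RNA. Rings mark the 3 RNAs whose contrasts differ at a limma adjusted p under 0.05. In JinB8 129 of the 146 lie below 0, and in Jurkat 109 lie above 0. Without Jurkat MHC1+ replicate 1, which is not drawn, 86 lie above 0 in Jurkat. The medians over all genes are 0.03 in JinB8 and -0.02 in Jurkat (0.02 in 15 arrays).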

How the data were processed

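Total RNA was labelled (300 ng per array, per the labels' protocols) and read on 18 Affymetrix whole-transcript arrays. The authors' software was Affymetrix Expression Console with RMA, per the submitters' processing notes; versions: not given in the sources used here. The deposited values were treated as log2 signal because of their range. Arrays carry no count of reads, and the precision rests on their number and on the spread among them. No batch was named for any array.

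Of 33297 probe sets, 12083 without a gene and 1754 with several symbols were left out. The probe set with the highest mean over 18 arrays was kept for each of 18417 genes. limma 3.58.1 in R 4.3.3 (lmFit, eBayes, 1 mean per group) was fitted to 16 arrays, and again to 15. Tests were two-sided with Benjamini-Hochberg adjustment over all genes. The script was tested on simulated data. Python 3.11.15 and matplotlib 3.10.9 made tables and plots.

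Members, lists, tests and the naming rule were chosen with earlier results of these data known. The rule names genes called whose groups do not overlap or, with under 10 called, the 20 of smallest p in each fit, the 4 smallest-p members per list, and a few set genes. CCNB1, CDK1, CDC20, UBE2C, KIF2C and KITLG were named outside it, after their values were seen. Genes not measured (several sterol and MHC class 1 genes) were not analysed here. One gene named by the rule is not reported here. Other settings were all 18 arrays, only the 6 Jurkat arrays, each array left out, limma with trend and robust options, array weights, array SD as a covariate, quantile normalization again, centring on medians, the lowest 25% or 50% of genes left out, all probe sets, and a minimum of 1.5-fold.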

Additional observations from a re-analysis of the deposited data

Results flagged for a closer look

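For 3 small nucleolar RNAs the CD63+ minus MHC1+ difference in Jurkat and in JinB8 differed by limma's interaction test. The Jurkat difference minus the JinB8 difference was 2.11 for SNORA38B, 1.39 for SNORD42A and 1.64 for SNORA37 (limma adjusted p = 0.0026, 0.0078 and 0.013). The Jurkat differences were -0.24, 0.11 and 0.43 and the JinB8 differences -2.35, -1.28 and -1.21. For each, the JinB8 MHC1+ arrays had the highest levels of the 4 vesicle groups.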

How the results depend on the processing

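The Jurkat comparison called 1 gene, STC1. It called 0 genes with all 18 arrays, with only the 6 Jurkat arrays, with trend and robust options of limma, with a repeated quantile normalization and with a minimum of 1.5-fold, and 0 to 1 when single arrays were left out. Over 16 arrays 2021 genes had an unadjusted p under 0.05 by limma. STC1 kept its direction in each of these settings. Where the 6 Jurkat arrays and their values were unchanged, its difference could not move, and only its p could. With array weights estimated gene by gene, 177 genes were called, 109 higher and 68 lower. The default estimate of those weights did not converge and was not used. The JinB8 comparison called 34 genes, and 1 with all 18 arrays, 4248 with array weights, 19 with quantile normalization, 14 without the lowest 50% of genes, 1 with a minimum of 1.5-fold and 7 to 714 when single arrays were left out. The difference of the contrasts called 3 genes. It called 0 with all 18 arrays, with quantile normalization or with a minimum of 1.5-fold, 5756 with array weights, 10 with array SD as a covariate and without MHC1+ replicate 1, and 1 to 4682 when single arrays were left out. The cause of these shifts was not tested. Some differences changed sign. With array weights NOS3 gave 0.045, SNORA62 -0.056, CDC20 0.213 and KIF2C 0.093. With the SD covariate NOS3 gave 0.109, FASN 0.032 and UBE2C 0.031, and with that covariate and without MHC1+ replicate 1 NOS3 gave 0.089, SELE -0.085, CDC20 0.128 and KIF2C 0.107. With quantile normalization SNORD42A gave -0.035, SNORA62 -0.089 and KIF2C 0.068. With single arrays left out, NOS3 ranged from -0.065 to 0.082, ICAM1 from -0.155 to 0.044, SELE from -0.076 to 0.643, FASN from -0.203 to 0.025, SNORA62 from -0.327 to 0.384, CDC20 from -0.375 to 0.135 and KIF2C from -0.084 to 0.114. Of 1148 list medians under other settings, 1109 moved by less than the replicate spread. Many of these could not move, because settings that left the Jurkat arrays and their values unchanged give the same median. The JinB8 and contrast counts under other settings, the gene-by-gene weights, the covariate without replicate 1 and the list medians were chosen after seeing the data.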
